A study of Mus musculus with 51 samples.

Results

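The guanylate-binding proteins (GBPs) are large GTPases that cells make in quantity after exposure to interferons. The genes described here are Gbp2, Gbp3, Gbp4, Gbp5, Gbp6, Gbp7, Gbp8 and Gbp9, 8 of the 40077 mouse genes in the count table, and they were taken by gene symbol alone in all tumor and cell groups. The series held 51 bulk RNA-seq libraries in 16 groups, of which 35 were tumors and 16 were cultured cells. It asked how the amount or activity of UBA1, the E1 enzyme that starts most ubiquitin conjugation, bears on tumors and on the response to interferon gamma (IFN-γ).

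The cultured cells were Myc-CaP, a mouse prostate cancer line, with 2 libraries in each group. In the sgRNA experiment, cells with a control guide (sgNC) or a guide against Uba1 (sgUba1) were kept without IFN-γ (labelled PBS) or given IFN-γ. In the TAK-243 experiment, untreated cells and cells given 50 nM TAK-243, a small-molecule inhibitor of UBA1, were kept with or without IFN-γ. Per the study's methods IFN-γ was used at 1 ng/mL for 18 h and TAK-243 for 18 h. The tumors were B16-BL6 melanoma in female C57BL/6 mice (sgNC, n = 3; sgUba1, n = 4) and Myc-CaP in male FVB mice (sgNC, n = 3; sgUba1, n = 7; empty vector, EV, n = 3; Uba1 overexpression, Uba1 OE, n = 4; vehicle, n = 6; TAK-243 at 25 mg/kg in 2 doses per week, n = 5), in mice of 6 to 8 weeks. The edited lines were grown from single sorted cells, so the guide and the founder cell of a line cannot be told apart. The study used 2 guides against Uba1, and the labels do not say which guide or line an sgUba1 sample carried. An sgUba1 group may therefore mix them. Uba1 OE used a lentiviral CMV vector. Both flanks of a mouse were injected, so some tumors may share an animal, and nothing in the labels says that replicates were separate cultures or animals. The p-values below therefore measure the spread between these samples, which may be technical.

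Library totals ran from 8652097 to 35693203 counts in tumors and from 12860987 to 38032395 in cells. Uba1 was checked first, in CPM (counts scaled to a common library total). It fell in sgUba1 cells without IFN-γ (log2 fold change −0.87, edgeR adjusted p = 3.71e-07) and with IFN-γ (−1.13, adjusted p = 5.06e-08) and in sgUba1 B16-BL6 tumors (208 to 247 against 410 to 455 CPM), and it was higher in Uba1 OE tumors (631 to 747 against 278 to 310 CPM). Of the 7 Myc-CaP tumors labelled sgUba1, replicates 1 to 3 held 197 to 211 CPM, below the 320 to 337 CPM of the controls, whereas replicates 4 to 7 held 361 to 383 CPM, above every control. The GBP estimates for that group are given with and without those 4 tumors, and results for markers and other gene lists with all 7 only. Among identity markers, the epithelial keratin gene Krt8 stood at 1.98 to 15.5 CPM in the cells while Epcam was at or under 3 counts, and the leukocyte marker Ptprc was at or under 3 counts in every cell group. The summed melanocyte markers held 12484 to 16313 CPM in B16-BL6 tumors and 13.7 to 32.5 CPM in Myc-CaP tumors.

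GBPs belong to the cell-autonomous arm of immunity: they bind GTP, assemble on membranes that surround intracellular bacteria and parasites, and help bacterial lipopolysaccharide reach the inflammasome caspases. IFN-γ acts through its receptor and the kinases JAK1 and JAK2, and its target genes carry gamma-activated sites (GAS) or interferon-stimulated response elements (ISRE), the latter bound by the IFN-γ induced factor IRF1. Immunity-related GTPases (IRGs), such as Igtp and Irgm1, are a neighbouring family that acts on the same vacuoles.

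The genes lie in clusters on 2 chromosomes. On GRCm38 (GENCODE M21 annotation) the chromosome 3 cluster is on the plus strand and holds Gbp5 (142493978 to 142522344), Gbp7 (142530342 to 142550149), Gbp3 (142560026 to 142573209) and Gbp2 (142620602 to 142638008). The chromosome 5 cluster is on the minus strand and holds Gbp8 (105014150 to 105139540), Gbp9 (105077630 to 105139539), Gbp4 (105115767 to 105139586) and Gbp6 (105270702 to 105293698). Gbp8, Gbp9 and Gbp4 overlap at their starts. The share of 31-base words found in no other gene, which bears on how reads can be assigned, was 94.4% to 96.9% for Gbp2, Gbp3 and Gbp5, 81.7% to 85.3% for Gbp4, Gbp7 and Gbp9, 68.9% for Gbp8 and 25.7% for Gbp6. Values of Gbp6 are uncertain for that reason, since 51.4% of its words also occur in its neighbour Gbp10.

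RefSeq promoter windows (GRCm38.p6, 250 bases before the start to 50 after) were matched for 4 of the 8 genes, Gbp2, Gbp3, Gbp5 and Gbp7. Gbp4, Gbp6, Gbp8 and Gbp9 are named only. The parts of these windows that lie outside annotated exons are shown, for Gbp3 in the first of its windows only. They are shown because these are the genes of the chromosome 3 cluster, 3 of which rose with IFN-γ in cells while Gbp5 stayed near the counting floor. Capitals mark a match to the GAS letters TTCNNNGAA or the ISRE letters (GAAA, 2 bases of any kind and GAAA again), searched on both strands, so that an ISRE on the minus strand reads TTTC, 2 bases and TTTC here. The stretches are, in this order, chr3:142620413-142620601, chr3:142559794-142560025, chr3:142530086-142530335 and chr3:142496684-142496899, each on the plus strand.
Gbp2: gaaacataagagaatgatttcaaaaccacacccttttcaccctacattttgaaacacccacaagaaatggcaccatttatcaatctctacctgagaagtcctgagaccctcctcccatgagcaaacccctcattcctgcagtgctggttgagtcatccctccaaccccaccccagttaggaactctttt
Gbp3: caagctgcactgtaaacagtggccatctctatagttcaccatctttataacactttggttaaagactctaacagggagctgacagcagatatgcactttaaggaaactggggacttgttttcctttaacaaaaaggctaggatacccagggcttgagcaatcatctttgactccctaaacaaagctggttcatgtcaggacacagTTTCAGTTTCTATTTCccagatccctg
Gbp7: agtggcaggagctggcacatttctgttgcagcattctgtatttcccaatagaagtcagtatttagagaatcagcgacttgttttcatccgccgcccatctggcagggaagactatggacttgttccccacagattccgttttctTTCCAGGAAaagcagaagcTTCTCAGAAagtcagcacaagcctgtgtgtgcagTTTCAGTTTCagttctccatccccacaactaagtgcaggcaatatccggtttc
Gbp5: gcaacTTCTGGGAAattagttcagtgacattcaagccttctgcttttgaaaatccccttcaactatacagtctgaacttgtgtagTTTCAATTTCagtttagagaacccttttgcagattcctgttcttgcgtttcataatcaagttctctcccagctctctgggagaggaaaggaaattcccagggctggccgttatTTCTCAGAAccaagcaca

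Each of the 4 genes had at least 1 ISRE match in the window used here. Gbp3 had another window, chr3:142560106-142560405, which is not shown and held no GAS or ISRE match. Gbp7 had an ISRE 53 to 44 bases before the start and 2 GAS matches, at 106 to 98 and 87 to 79 bases. Gbp3 had 2 overlapping ISRE matches, at 45 to 36 and 39 to 30 bases, and no GAS match, and Gbp2 had an ISRE at 59 to 50 bases, which falls in annotated exon and is not shown. Gbp5 had 2 GAS matches, at 245 to 237 and 52 to 44 bases, and an ISRE at 165 to 156 bases. Of 32851 promoter windows of the same length, 8.3% held a GAS match, 3.44% an ISRE match and 0.454% both. A match is a description of letters and not a measured binding site, and no GAS match in the Gbp2 and Gbp3 windows says only that these letters are not in those 300 bases. The Gbp5 window lies inside the annotated span of the gene, ahead of a start further downstream.

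IFN-γ raised Gbp2, Gbp3 and Gbp7 in Myc-CaP cells in all 4 settings in which it was given. Gbp2, which in other systems is recruited to parasite vacuoles, showed the largest count ratio of the 3 in each of them, an order mostly within counting error of Gbp3. In sgNC cells its 2 libraries held 1 and 0 counts without IFN-γ and 60 and 78 with it, and in sgUba1 cells 2 and 0 against 500 and 463. In untreated cells the counts were 2 and 1 against 185 and 264, and in TAK-243 cells 2 and 1 against 286 and 357. No library without IFN-γ exceeded 2 counts, below the floor of 3 counts, and none with IFN-γ was under 60.

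Scaled to library size, the summed Gbp2 counts were higher with IFN-γ by a ratio of 119 (95% exact counting interval 21.1 to 4746) in sgNC cells, 472 (130 to 3904) in sgUba1 cells, 159 (53.9 to 772) in untreated cells and 204 (69.6 to 993) in TAK-243 cells. These intervals cover counting error only, and their width comes from the 1 to 3 counts without IFN-γ. The ratios for Gbp3 were 30.3 (5.09 to 1229), 49.2 (23.6 to 123), 119 (20.9 to 4731) and 79.1 (21.5 to 658) in the same order. Its interval overlapped that of Gbp2 in all settings but sgUba1 cells. The quasi-likelihood test of edgeR, adjusted by Benjamini-Hochberg over all genes tested, gave Gbp2 an adjusted p of 1.49e-04, 7.47e-08, 3.22e-16 and 5.51e-17 in the same order.

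In 3 of the 4 settings, all but TAK-243 cells, Gbp7 had the highest counts of the 3 genes without IFN-γ and the smallest ratio. The interval of that ratio overlapped the interval of Gbp3 in each setting. Gbp7 counts were 2 and 10 without IFN-γ against 23 and 42 with it in sgNC cells (ratio 4.68, interval 2.51 to 9.53) and 12 and 11 against 270 and 255 in sgUba1 cells (22.4, 14.8 to 35.6). They were 5 and 8 against 90 and 74 in untreated cells (13.4, 7.61 to 25.7) and 1 and 1 against 75 and 113 in TAK-243 cells (89.5, 24.4 to 745). The groups did not overlap in any of the 4 settings, a share not counted over all genes, with edgeR adjusted p of 0.0313, 9.74e-06, 2.12e-09 and 1.77e-10. Gbp3 rose from at most 1 count to 22 and 13 in sgNC cells (adjusted p = 0.0454), from 0 and 7 to 177 and 174 in sgUba1 cells (2.33e-04), from 0 and 1 to 50 and 62 in untreated cells (1.71e-09) and from 2 and 0 to 72 and 94 in TAK-243 cells (1.09e-09).

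The 3 genes were the only ones of the 8 with enough counts to be tested in cells, and each passed the test in the higher direction in each setting. Over all genes tested, the share called higher was 3.03% in sgNC cells, 1.2% in sgUba1 cells, 19.6% in untreated cells and 5.76% in TAK-243 cells (3.88%, 2.85%, 29% and 10.5% in either direction). In sgNC cells the calls of Gbp3 and Gbp7 were not stable. With either IFN-γ library of that group left out, or with the 2 groups fitted alone, Gbp2 remained the only member called.

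Other genes of the pathway rose in the same libraries. Of the 6 IRG GTPases, IFN-γ raised 5 in sgNC cells, 6 in sgUba1 cells, 6 in untreated cells and 5 in TAK-243 cells. Of the 12 genes of IFN-γ signalling, 3, 4, 6 and 7 were called higher in the same order and 2 were called lower, in untreated cells. Irf1 rose in all 4 settings, by log2 0.64 in sgNC cells (adjusted p = 9.68e-04 by edgeR), 1.61 in sgUba1 cells (1.08e-07), 1.63 in untreated cells (6.67e-17) and 1.65 in TAK-243 cells (1.74e-18). Ifng and Ifnb1 RNA had 0 counts in every cell library.

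The other 5 genes gave few or no counts in cells. Gbp5, which promotes inflammasome assembly in macrophages, held 0 to 9 counts over the 16 libraries, with 1 to 8 without IFN-γ and 0 to 9 with it. Gbp4 did not exceed 1 count, Gbp9 2 and Gbp6 3, and Gbp8 had 0 counts in all 16 libraries. In TPM, a level scaled for transcript length and library total that allows genes to be compared, Gbp2 took 57.8% to 72% of the summed level of the 8 genes in the 8 libraries with IFN-γ, and the 4 genes of chromosome 5 took 0% to 1.5%.

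**Figure D1:**
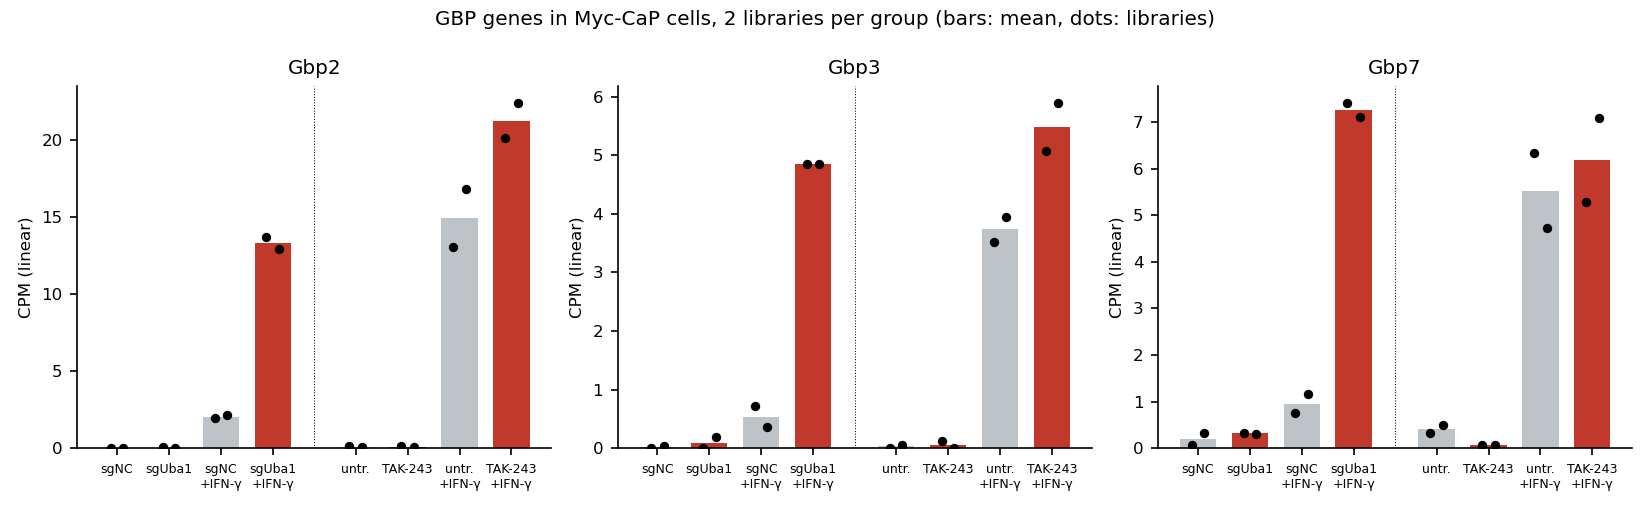
Level of Gbp2, Gbp3 and Gbp7 in Myc-CaP cells, in CPM on a linear axis, by group, with bars for the mean and dots for the 2 libraries of each group; red bars are sgUba1 or TAK-243 cells and the dotted line parts the 2 experiments. All 3 genes are near 0 without IFN-γ, and with it Gbp2 rises to 1.97 and 2.15 CPM in sgNC cells and to 12.9 to 22.4 CPM in the other groups.

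Under IFN-γ, sgUba1 cells held more Gbp2, Gbp3 and Gbp7 RNA than sgNC cells, by 6 to 9 times. Gbp2 stood at 1.97 and 2.15 CPM in sgNC cells and at 13.7 and 12.9 CPM in sgUba1 cells, a 6.44-fold difference (log2 2.69, SE 0.17, adjusted p = 8.46e-07 by edgeR; count ratio 6.44, interval 5.39 to 7.76). Gbp3 stood at 0.723 and 0.358 CPM against 4.85 and 4.86 CPM, a 9.14-fold difference (log2 3.19, SE 0.39, adjusted p = 7.72e-05 by edgeR). Gbp7 stood at 0.756 and 1.16 CPM against 7.40 and 7.12 CPM, a 7.47-fold difference (log2 2.90, SE 0.25, adjusted p = 6.31e-06 by edgeR). Both sgUba1 libraries lay above both sgNC libraries for all 3 genes, and the share of all genes that did so was not counted. Of all genes tested, 39.4% were called in this comparison and 17% in the higher direction, so calls were common among genes at large, and the median log2 fold change of the 3 was 2.90.

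Without IFN-γ none of the 3 passed the test between sgUba1 and sgNC cells, by edgeR, DESeq2 or limma-voom, where 29.7% of all genes were called. None of the 3 and 6153 of all genes had an unadjusted p under 0.05. Both groups lay at or under 3 counts of Gbp2 in every library, and Gbp7 counts of 2 and 10 against 12 and 11 overlapped. The test of whether the IFN-γ response itself differed between the lines gave 0 calls among the 3 by edgeR and by limma-voom, with 4.64% of all genes called. Its estimates were 2.09 for Gbp2 (adjusted p = 0.593), 0.91 for Gbp3 (0.899) and 2.26 for Gbp7 (0.0819) on the log2 scale. At an unadjusted p under 0.05 there were 1 of the 3, Gbp7, and 3342 of all genes. Gbp7 was called when genes of low count were kept (adjusted p = 0.00726, with 6.53% of all genes called) and without sgNC replicate 1 (0.00977).

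The neighbouring IRG GTPases were higher in sgUba1 than in sgNC cells with IFN-γ at 6 of 6 genes, among them Igtp (log2 3.04, adjusted p = 2.19e-08 by edgeR) and Irgm1 (1.72, 5.08e-08). Of 12 genes of IFN-γ signalling, 7 were higher and none lower, with Irf1 at 0.79 (3.64e-06). Without IFN-γ, 4 of the 6 IRG genes were already higher in sgUba1 cells, such as Irgm1 (0.63, 2.52e-04). The IFN-γ response differed between the lines for Irf1 (0.96, 8.90e-04) and Irgm1 (1.09, 0.00130), each with more counts without IFN-γ than any GBP gene. Of 8 inflammasome genes linked to GBPs, 4 could be tested. With IFN-γ 1 was higher and 1 lower in sgUba1 cells, the latter Gsdmd, the pore-forming gasdermin D (−2.65, adjusted p = 3.79e-04 by edgeR). Without IFN-γ 1 was also higher and 1 lower. Gsdmd counts were low, at or under 3 in every sgUba1 library without IFN-γ.

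Levels of untreated Myc-CaP cells from the TAK-243 experiment are given beside these, with no test, because the experiments were separate. With IFN-γ, Gbp2 averaged 1.23 TPM in sgNC cells and 7.89 TPM in sgUba1 cells, and 7.99 TPM in the untreated cells. Gbp3 averaged 0.429, 3.11 and 2.08 TPM and Gbp7 0.242, 2.47 and 1.48 TPM in the same order. The sgNC line was thus the low group of the 3, and the untreated cells lay near the sgUba1 line for Gbp2.

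With IFN-γ, Gbp2 was modestly higher in TAK-243 cells than in untreated cells, and Gbp3 and Gbp7 did not pass the test. Gbp2 stood at 13.0 and 16.8 CPM in untreated and at 20.1 and 22.4 CPM in TAK-243 cells, a 1.42-fold difference (log2 0.51, SE 0.12, adjusted p = 5.49e-04 by edgeR; count ratio 1.42, interval 1.25 to 1.60). Gbp3 stood at 3.52 and 3.95 against 5.06 and 5.89 CPM, a difference of log2 0.55 (SE 0.25) that missed the threshold at an adjusted p of 0.0520 by edgeR and passed it by limma-voom (0.0274), with RLE normalization (0.0425) and with the 2 groups fitted alone (0.0156). Gbp7 overlapped between the groups, at 6.34 and 4.72 against 5.28 and 7.07 CPM (log2 0.17, SE 0.22, adjusted p = 0.512). In this comparison 68.2% of all genes tested were called and 32% were called higher, and 1 of 3 GBP genes called higher is near that background.

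Without IFN-γ, Gbp7 was lower in TAK-243 cells, at 1 and 1 counts against 5 and 8 (count ratio 0.169, interval 0.0186 to 0.749; adjusted p = 0.0159 by edgeR), in a comparison with 66.3% of all genes called and 34% called lower. That call was lost without untreated replicate 2 and without TAK-243 replicate 1, where no member was called. Gbp2 and Gbp3 were at or under 2 counts in both groups. The change of the IFN-γ response by TAK-243 gave 0 calls among the 3 by edgeR and limma-voom, with 2.38% of all genes called and 1 of the 3, Gbp7, at an unadjusted p under 0.05 (log2 2.60, adjusted p = 0.135).

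The other IFN-γ genes moved both ways with TAK-243. With IFN-γ, 2 of 6 IRG genes were higher, Tgtp1 (log2 0.57, adjusted p = 4.64e-06 by edgeR) and Tgtp2 (0.63, 0.00436), and 3 were lower, among them Igtp (−1.14, 2.18e-09). Of the 12 signalling genes 9 were higher and 2 lower. Irf1 (0.86, 7.29e-15) and Socs1, a feedback inhibitor of JAK kinases (2.36, 3.34e-14), were higher, while Jak2 (−0.52, 1.14e-11) was lower.

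**Figure D2:**
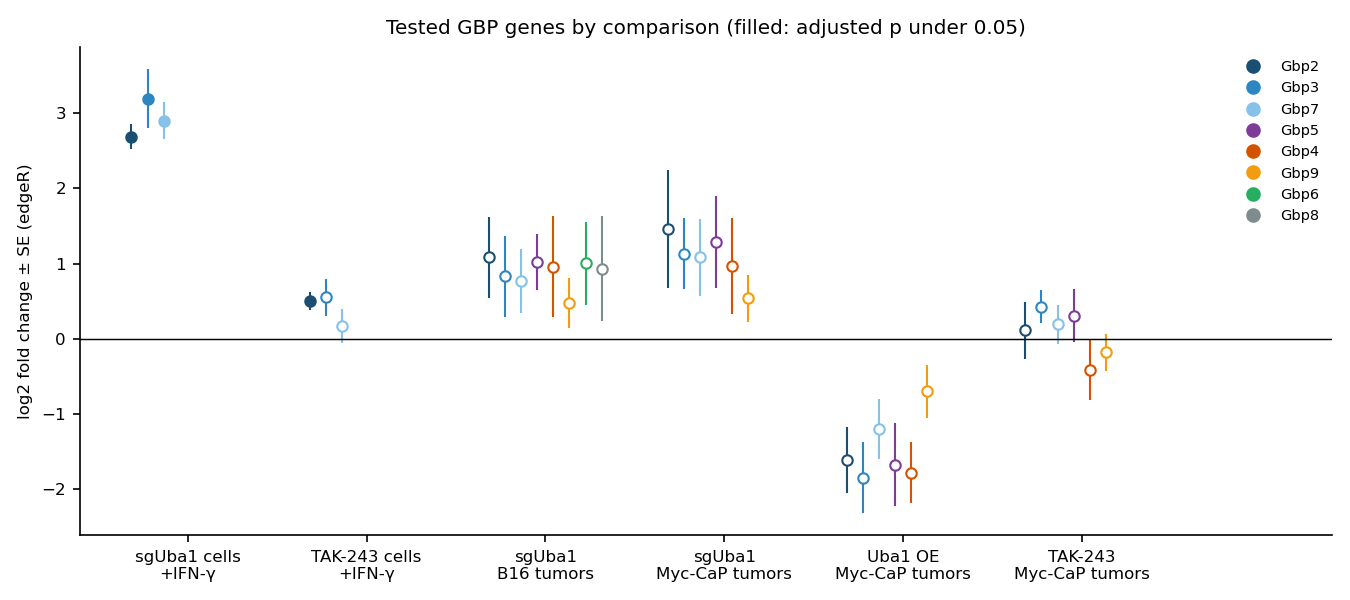
Log2 fold change of each tested GBP gene in 6 comparisons, with bars of 1 standard error and filled dots for genes with an adjusted p under 0.05. The estimates for sgUba1 cells with IFN-γ lie at 2.69 to 3.19, those for both sgUba1 tumor comparisons are above 0 and those for Uba1 OE tumors below 0, and no tumor estimate is filled.

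In tumors the chromosome 5 genes were also present. Over the 35 tumors Gbp4 held 14 to 192 counts and Gbp9 15 to 138, and Gbp5 held 7 to 148. The 4 chromosome 5 genes took 12.4% to 48.2% (median 22.5%) of the summed TPM of the 8 genes, and Gbp2 took 20.7% to 43.6%. The summed level was 5.65 to 99.8 TPM in tumors, 1.98 to 19.2 TPM in cells with IFN-γ and 0.127 to 0.306 TPM in cells without. Tumors are mixtures, so fewer cells of a type and less RNA per cell cannot be told apart in any of the tumor values.

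**Figure D3:**
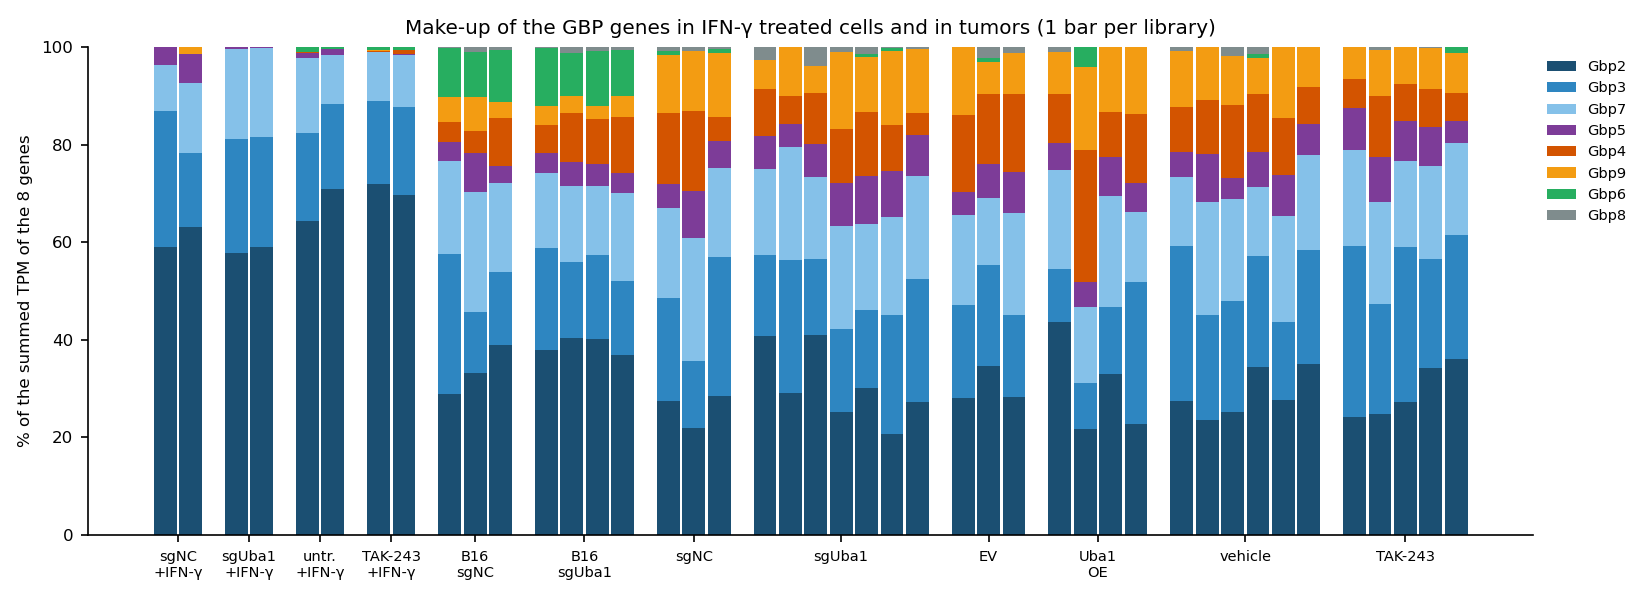
Share of the summed TPM of the 8 genes taken by each gene, in percent, with 1 bar for each cell library with IFN-γ and each tumor. Gbp2, Gbp3 and Gbp7 take nearly all of it in the cells, while the chromosome 5 genes take 12.4% to 48.2% in the tumors, with Gbp6 visible in B16-BL6.

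Gbp2 had the highest mean TPM of the 8 genes in all 8 tumor groups, from 2.85 ± 1.30 TPM (SD, n = 4) in Uba1 OE to 15.0 ± 5.04 TPM (n = 4) in sgUba1 B16-BL6 tumors. Its range over tumors overlapped that of the next gene, Gbp3 or Gbp7, in each group, so their order is not beyond the spread. Within single tumors Gbp2 was above that next gene in every tumor of 5 groups, both B16-BL6 groups, EV, Uba1 OE and Myc-CaP sgUba1. The same held in 2 of 3 Myc-CaP sgNC, 5 of 6 vehicle and 3 of 5 TAK-243 tumors. The next gene was Gbp7 in Uba1 OE and Myc-CaP sgUba1 tumors, where Gbp2 was not always the highest gene. Gbp3 took more of the summed TPM than Gbp2 in Uba1 OE replicate 4 (29.1% against 22.7%) and Myc-CaP sgUba1 replicate 6 (24.4% against 20.7%). Gbp4 did so in Uba1 OE replicate 2 (27.1% against 21.8%). By group mean Gbp3 and Gbp7 followed Gbp2 and overlapped each other, then Gbp4, Gbp9 and Gbp5 in varying order in Myc-CaP tumors. Gbp8 was low throughout, at 0 to 67 counts.

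Gbp6 separated the tumor models. It held 32 to 273 counts in the 7 B16-BL6 tumors and 0 to 8 counts in the 28 Myc-CaP tumors, where the median was 0, and it made up 8.81% to 11.7% of the summed level in B16-BL6. Gbp2b, the chromosome 3 neighbour of Gbp2 that was not among the 8, held 0 to 2 counts in B16-BL6 tumors. In Myc-CaP tumors it held 0 to 358 counts with a median of 5, so the models overlapped, and the 358 counts were in sgUba1 replicate 3. Gbp10, which shares sequence with Gbp6, was listed in both, at 1 to 62 counts in B16-BL6 and 0 to 76 in Myc-CaP tumors, and Gbp11 held 12 to 36 and 0 to 8 counts. The cancer line, the mouse strain and the sex of the host differ together between the models and cannot be told apart, and the groups were not compared by a test.

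In B16-BL6 tumors all 8 genes had a higher mean in sgUba1 than in sgNC, and none passed the test. Gbp2 stood at 7.22, 3.21 and 23.8 CPM in the sgNC tumors and at 29.8, 21.0, 31.3 and 13.9 CPM in the sgUba1 tumors, and the groups overlapped through sgNC replicate 4. The difference was log2 1.08 (SE 0.54, adjusted p = 0.353 by edgeR). Gbp5 stood at 1.22, 0.954 and 2.68 CPM against 3.85, 3.12, 4.22 and 1.89 CPM (log2 1.02, SE 0.37, adjusted p = 0.230 by edgeR), and Gbp7 at 8.01, 4.08 and 19.1 against 22.4, 14.8, 20.9 and 12.2 CPM (log2 0.76, adjusted p = 0.395). The same control tumor was the highest sgNC tumor for each of these genes.

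For the chromosome 5 genes in the same tumors, Gbp6 stood at 2.61, 0.925 and 6.71 against 9.55, 4.77, 9.21 and 3.68 CPM (log2 1.0, adjusted p = 0.393 by edgeR) and Gbp4 at 1.22, 0.405 and 6.15 against 5.91, 3.83, 7.19 and 3.0 CPM (0.96, 0.503). The estimates for Gbp3, Gbp8 and Gbp9 were 0.83, 0.93 and 0.47. The median of the 8 was 0.95, and that of all genes tested was 0.0124. By edgeR 0.724% of all genes were called, and 1 of the 8 (Gbp5) and 2861 of all genes had an unadjusted p under 0.05. DESeq2, which gave no adjusted p for 1 of the 8, and limma-voom made no call either. Without sgNC replicate 4, Gbp2 (log2 2.21, adjusted p = 0.0400) and Gbp4 (2.63, 0.0455) were called, with 1.17% of all genes called.

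Leukocyte markers also had higher means in the sgUba1 tumors, and none was called. Ptprc, which encodes the pan-leukocyte protein CD45, stood at 4.48 to 9.42 CPM in sgNC and 10.3 to 11.6 CPM in sgUba1 tumors (adjusted p = 0.162), and the summed 8 myeloid markers at 102 to 171 against 169 to 210 CPM. The summed 8 T and NK cell markers stood at 8.21 to 9.46 against 8.85 to 11.4 CPM. Ifng and Ifnb1 did not exceed 3 counts in any B16-BL6 tumor. The part of these cells in the GBP values was not tested.

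In Myc-CaP tumors labelled sgUba1, the 6 genes with enough counts had higher means than in sgNC, and none passed the test. Gbp2 stood at 9.96, 4.83 and 4.66 CPM in sgNC and between 5.33 and 58.2 CPM, with a median of 8.07 CPM, in the 7 tumors labelled sgUba1. The 3 highest were replicate 3 at 58.2, replicate 1 at 25.4 and replicate 5 at 13.4 CPM, and the other 4 lay within the range of the controls. The difference was log2 1.46 (SE 0.78, adjusted p = 0.286 by edgeR). Gbp3 stood at 4.98, 3.22 and 3.14 CPM against 4.06 to 19.3 CPM with a median of 7.17 CPM (log2 1.13, SE 0.47, adjusted p = 0.178), and Gbp7 at 10.4, 9.26 and 5.71 against 7.87 to 46.0 CPM with a median of 12.4 CPM (1.08, SE 0.51, 0.230).

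The estimates for Gbp5, Gbp4 and Gbp9 were 1.28, 0.97 and 0.54, with edgeR adjusted p of 0.235, 0.387 and 0.325. The median of the 6 genes was 1.11 and that of all genes tested 0.00121. By edgeR 3.04% of all genes were called, and 1 of the 6 (Gbp3) and 3835 of all genes had an unadjusted p under 0.05. DESeq2 and limma-voom made no call among the 6. Gbp8 was not tested, with 97 counts summed over the 7 tumors labelled sgUba1 and 5 over the controls, and replicate 3 alone held 67 of them.

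Without the 4 tumors whose Uba1 lay above every control, the estimates were 2.18 for Gbp2, 1.52 for Gbp3, 1.37 for Gbp4, 1.60 for Gbp5, 1.55 for Gbp7 and 0.51 for Gbp9, and again none was called. The 3 tumors with low Uba1 spanned nearly the whole range for Gbp2, at 25.4, 5.33 and 58.2 CPM. Replicate 2, at 202 CPM of Uba1, had the lowest Gbp2, Gbp3, Gbp4, Gbp5, Gbp7 and Gbp9 of the 7.

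Over all tumors labelled sgUba1, those with Uba1 above every control included, immune markers were higher. Ptprc stood at 16 to 38.6 CPM against 12 to 16.4 CPM (log2 1.06, adjusted p = 0.0459 by edgeR), and 3 of the 8 myeloid markers were called higher and none lower. The summed myeloid markers were 389 to 608 against 225 to 407 CPM, and the summed T and NK cell markers 12.9 to 30.1 against 9.97 to 11.7 CPM, with Nkg7 and Klrb1c at or under 3 counts in every control. Cultured Myc-CaP cells gave 2.10 to 7.78 CPM for the T and NK sum, so it is not a measure of T and NK cells alone. The part of immune cells in the GBP values was not tested.

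In Uba1 OE tumors the 6 tested genes had lower means than in EV tumors, and none passed the edgeR test. Gbp2 stood at 6.34, 21.0 and 14.7 CPM in EV and at 4.16, 2.53, 7.34 and 4.07 CPM in Uba1 OE tumors, overlapping through EV replicate 1 (log2 −1.61, SE 0.44, adjusted p = 0.148 by edgeR). Gbp4 stood at 2.73, 9.29 and 7.94 against 1.49, 1.56, 2.28 and 2.36 CPM (−1.78, SE 0.41, 0.125). It was the 1 gene of the 6 whose groups did not overlap, and the share of all genes without overlap was not counted. Gbp3 stood at 3.28, 10.1 and 7.20 against 1.09, 1.17, 2.04 and 3.32 CPM (−1.85, SE 0.47, 0.137).

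Gbp5 (log2 −1.67, adjusted p = 0.188 by edgeR) and Gbp7 (−1.20, 0.185) had estimates of like size, and that of Gbp9 was −0.70 (0.334). The median of the 6 was −1.64, beside 0.00328 for all genes tested. By edgeR 0.0269% of all genes were called, which is 4 genes, Uba1 among them. At an unadjusted p under 0.05 there were 5 of the 6 GBP genes, all but Gbp9, and 2698 of all genes. DESeq2 called 3 of them lower, Gbp2 (adjusted p = 0.0166), Gbp3 (0.0144) and Gbp4 (0.00653), where it called 4.76% of all genes, whereas limma-voom called none of the 6. Gbp8 was not tested, with 1 count over the Uba1 OE tumors and 18 over the EV tumors (count ratio 0.0363, interval 8.72e-04 to 0.230).

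Ptprc stood at 14.6 to 22.7 CPM in EV and at 7.14 to 16.3 CPM in Uba1 OE tumors (log2 −0.80, adjusted p = 0.195 by edgeR). The summed T and NK cell markers stood at 16.1 to 22 against 5.16 to 10.5 CPM, with Nkg7, Gzmb and Klrb1c at or under 3 counts in both groups and Cd3e in Uba1 OE. The same sum was 2.10 to 7.78 CPM in cultured Myc-CaP cells, so it is not a measure of T and NK cells alone. The summed myeloid markers overlapped, at 299 to 368 against 119 to 406 CPM. The part of these cells in the GBP values was not tested.

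The TAK-243 and vehicle tumors overlapped for all 6 tested genes. Gbp2 stood at 3.39 to 12.6 CPM with a median of 5.06 CPM in the 6 vehicle tumors and at 3.75, 5.86, 4.01, 11.6 and 7.44 CPM with TAK-243 (log2 0.11, SE 0.38, adjusted p = 0.909 by edgeR). The estimates were 0.43 for Gbp3, 0.31 for Gbp5, 0.19 for Gbp7, −0.18 for Gbp9 and −0.41 for Gbp4, with standard errors of 0.22 to 0.41. No gene was called by edgeR, DESeq2 or limma-voom, with none of the 6 and 2587 of all genes at an unadjusted p under 0.05 and 0.145% of all genes called. The median of the 6 was 0.15 and that of all genes 0.0128. Ptprc stood at 7.27 to 11.6 against 7.72 to 18.2 CPM, and 1 of the 8 myeloid markers was called higher.

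**Figure D4:**
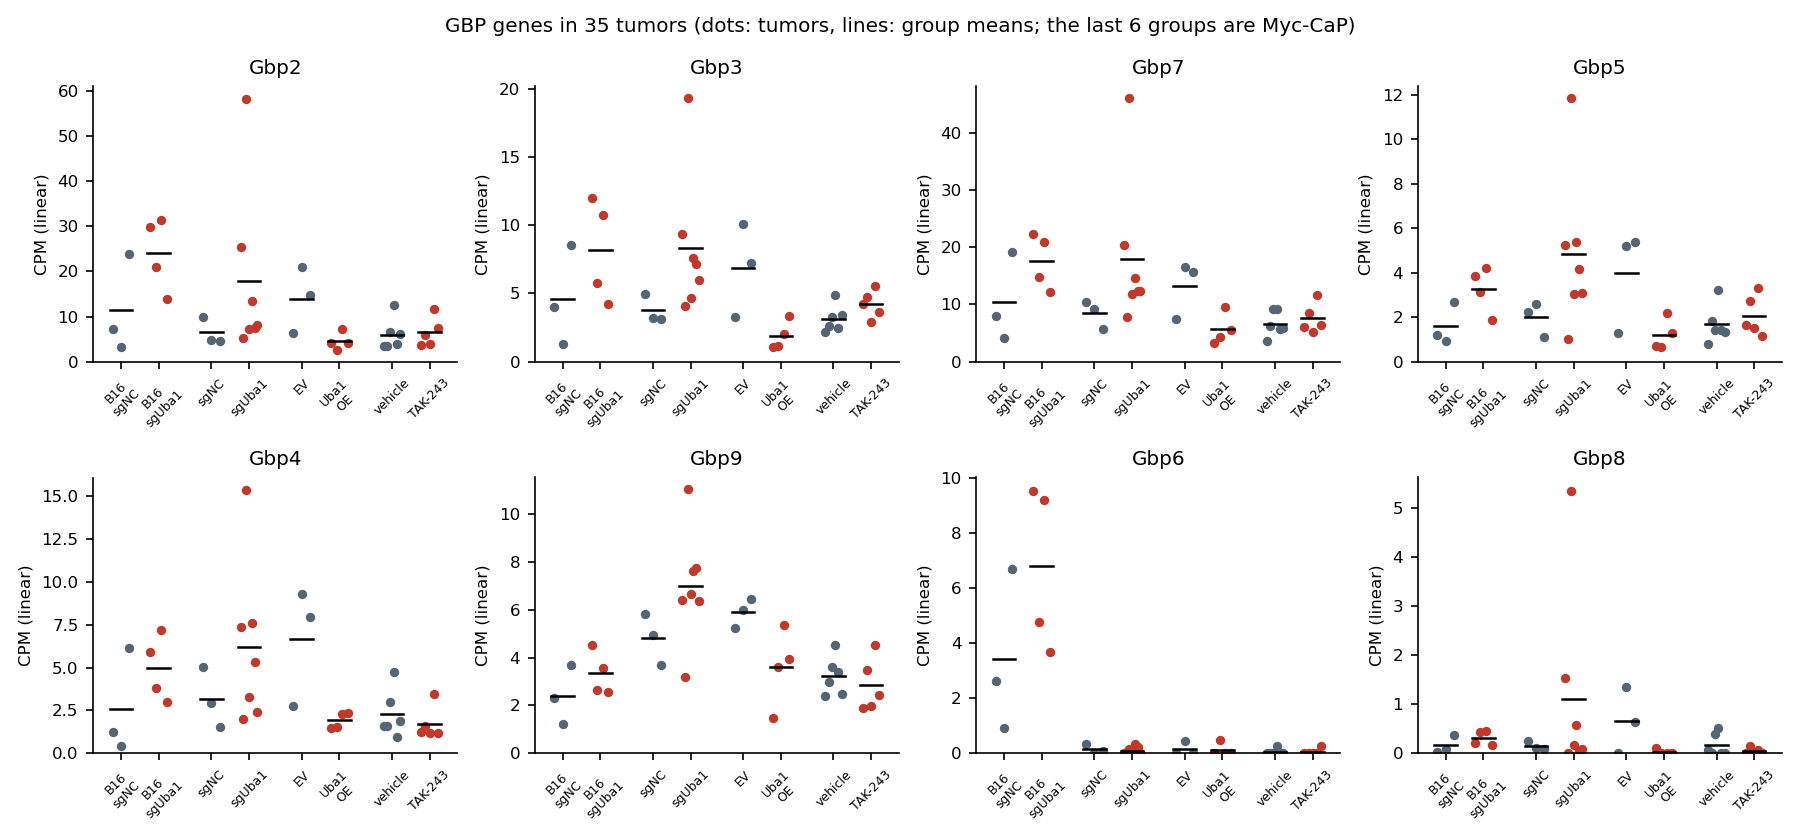
Level of each GBP gene in the 35 tumors, in CPM on a linear axis, by group, with dots for tumors and lines for group means; red dots are sgUba1, Uba1 OE or TAK-243 tumors. Most groups overlap, and replicate 3 of the Myc-CaP tumors labelled sgUba1 stands highest for Gbp2, at 58.2 CPM.

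In none of the 4 tumor comparisons was a gene of IFN-γ signalling, an IRG GTPase or an inflammasome gene called by edgeR. The log2 differences of the IRG genes were positive for 6 of 6 in both sgUba1 comparisons (medians 0.92 in B16-BL6 and 1.37 in Myc-CaP), negative for 6 of 6 with Uba1 OE (−1.49), and positive for 5 and negative for 1 with TAK-243 (0.26), where 4 GBP genes were positive and 2 negative. Ifnb1 was at or under 3 counts in every tumor group, and Ifng in all but the vehicle tumors. The summed fibroblast and endothelial markers overlapped between the groups in all 4 comparisons, and none of these 10 genes was called.

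Within groups, the GBP genes varied together from tumor to tumor. After the group mean was removed from log2 CPM, the 15 pairs among Gbp2, Gbp3, Gbp4, Gbp5, Gbp7 and Gbp9 correlated at r = 0.689 to 0.913 over the 35 tumors, which share libraries and depth. These are descriptions and carry no test. The mean deviation of the 6 genes ran from −1.17 to 1.5 on the log2 scale.

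The 10 genes most like that mean deviation, of 14267 others, included Iigp1, Igtp, Irgm2, Tgtp2, Gm43302, Gm4951, Ifi47, Gm8909 and Fgl2, from r = 0.958 for Iigp1 to r = 0.877 for Fgl2. Iigp1 (Spearman's rho 0.939), Igtp (0.920), Irgm2 (0.938), Tgtp2 (0.878) and Ifi47 (0.857) encode IFN-inducible GTPases. Without the 2 tumors farthest from the median, r was 0.941 for Iigp1 and 0.823 for Fgl2, and 9 of the 10 were also among the top 10 by Spearman's rho. The median r over the other genes was −0.00348 and the 90th percentile 0.350.

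Outside these 10, Irgm1 was close behind with r = 0.867, rank 13, and was among the top 10 by Spearman's rho (0.853). The signalling genes Irf1 and Jak1 had r = 0.606 and 0.0135. The leukocyte gene Ptprc had r = 0.70. The 8 myeloid genes ran from −0.00374 for Cd14 to 0.666 for C1qa, and the T cell genes Cd3d and Cd8a had 0.176 and 0.108. Both T cell genes also exceeded 3 counts in cultured Myc-CaP cells. The fibroblast genes had 0.327 to 0.502 and the endothelial genes 0.0109 to 0.252.

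**Figure D5:**
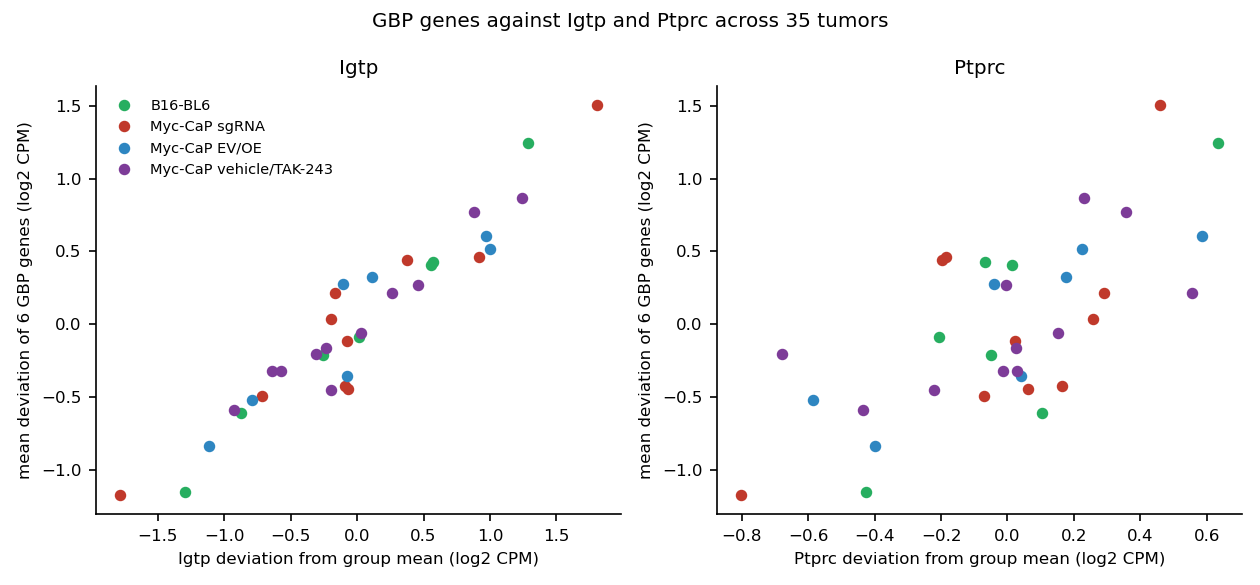
Mean deviation of 6 GBP genes from their group means (log2 CPM, vertical axis) against the deviation of Igtp (left) and Ptprc (right, horizontal axes) in the 35 tumors, coloured by experiment. The points lie closer to a line for Igtp (r = 0.951) than for Ptprc (r = 0.70).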

How the data were processed

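Estimated counts and TPM per gene of bulk RNA-seq libraries were deposited by the authors in tables of the whole series. Per the labels reads were quantified with kallisto (version not given in the sources used here) on mm10, and the labels name poly-A selection while the study's methods name a ribosomal depletion kit. The TPM values were computed by the authors and are scaled for length and library. All 51 library columns matched a sample's labels. The deposited estimated counts were rounded to whole numbers here and tested as counts, since they need not be whole.

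GBP genes, gene lists and tests were chosen with earlier results of these data known. The text names all 8 genes, genes of the lists where a result turns on them (other GBP symbols, IFN ligands, IFN-γ signalling, IRG GTPases, inflammasome genes, cell type markers), Uba1 and the 10 genes most correlated with the GBP genes; a few items are not reported here.

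edgeR 4.0.16 (R 4.3.3) fitted group means by quasi-likelihood with TMM factors and filterByExpr. The 8 libraries of each cell experiment were fitted together and each tumor experiment alone, with Benjamini-Hochberg adjustment over all genes tested and a threshold of 0.05. The SE is the size of the log2 fold change divided by the square root of F. CPM used TMM factors, and the correlations log2 CPM with a prior count of 2. Count ratios carry exact 95% intervals for counting error only. A library at or under 3 counts was taken as at the floor. Alternatives were RLE factors, DESeq2 1.42.0, limma-voom (limma 3.58.1), no filter on low counts, a replicate block, the 2 groups alone, leaving out each library, and leaving out tumors labelled sgUba1 with Uba1 above every control. The scripts were tested on simulated data. Cell groups held 2 libraries each and tumor groups 3 to 7, which limits the precision.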

Additional observations from a re-analysis of the deposited data

Results flagged for a closer look

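In groups of 4 to 10 tumors, the highest or lowest tumor was set against the others by Dixon's gap test on linear CPM for each gene. It gave 11 outlying values in 39 groups of values, each of them the highest of its group. Chance gives about 1 in 20 for normally distributed values. Linear CPM need not be so distributed, and the log scale was not tried, so the number flagged cannot be set against that rate. The genes are not independent, since they varied together from tumor to tumor. In the Myc-CaP tumors labelled sgUba1, replicate 3 stood far above the next tumor for 6 genes: 58.2 CPM of Gbp2 (next 25.4), 19.3 CPM of Gbp3 (next 9.32), 15.4 CPM of Gbp4 (next 7.61), 11.8 CPM of Gbp5 (next 5.38), 46.0 CPM of Gbp7 (next 20.3) and 5.36 CPM of Gbp8 (next 1.54). Uba1 stood at 211 CPM in that tumor.

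Vehicle replicate 4 stood apart for Gbp2 at 12.6 CPM (next 6.56), and TAK-243 replicate 4 for Gbp4 at 3.44 CPM (next 1.59). Gbp6 was assigned 0 to 8 counts in Myc-CaP tumors, and its values are uncertain because it shares much sequence with Gbp10. A single tumor had Gbp6 reads where the others of its group had 0. These were Uba1 OE replicate 2 at 0.487 CPM, vehicle replicate 4 at 0.278 CPM and TAK-243 replicate 5 at 0.249 CPM.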

How the results depend on the processing

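Of the counts of GBP genes called, with the list of the 10 most similar genes, 69 values under other settings stayed within 1.5 times the reported one and 6 did not; with a library left out 77 did and 6 did not. The count for IFN-γ in sgNC cells was 1 when the 2 groups were fitted alone and 1 to 3 with a library left out. For TAK-243 in cells with IFN-γ it was 2 with RLE factors, with limma-voom and with the 2 groups alone. Among the tests of a changed IFN-γ response, that for sgUba1 gave 1 with no filter on low counts and 0 to 1 with a library left out. TAK-243 without IFN-γ gave 0 to 1, sgUba1 in B16-BL6 tumors 0 to 2 with a library left out, and Uba1 OE 3 by DESeq2. The cause was not tested. DESeq2 gave no adjusted p for any of the 3 genes for IFN-γ in sgUba1 and in TAK-243 cells and for both changed responses, and with the 2 groups alone no GBP gene could be tested for TAK-243 without IFN-γ.

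Signs changed only for genes that were not called. Leaving out a library moved the log2 estimate for sgUba1 without IFN-γ from −0.0103 to 2.08 for Gbp7, −2.51 to 3.13 for Gbp2 and −2.49 to 4.79 for Gbp3. The change of the IFN-γ response by sgUba1 ranged from −0.45 to 5.20 for Gbp2 and −1.60 to 5.74 for Gbp3, and that by TAK-243 from −0.17 to 0.78 for Gbp2 and −2.67 to 2.81 for Gbp3, the latter 0.0265 by limma-voom. TAK-243 without IFN-γ ranged from −0.28 to 0.67 for Gbp2 and −2.27 to 3.21 for Gbp3, and with IFN-γ from −0.0755 to 0.384 for Gbp7. In TAK-243 tumors the ranges were −0.20 to 0.45 for Gbp2 and −0.0177 to 0.302 for Gbp7. Depth limits the cell values without IFN-γ, where most libraries lie under the floor.

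With the replicate number as a block, 3 GBP genes were called for IFN-γ in each of the 4 cell settings and for sgUba1 with IFN-γ, 1 for TAK-243 with and 1 without IFN-γ, and 0 in the other comparisons, which changed no call. Same-numbered samples did not deviate together throughout (lowest r −0.179, highest 0.315 over pairs), so the numbers were not taken to pair samples.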
